A study of Mus musculus with 8 samples.

Results

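The genes described here are 10 mouse genes of the nucleolus and of rRNA synthesis: Polr1a, Polr1b, Ubtf, Fbl, Nop56, Nop58, Dkc1, Nolc1, Npm1 and Ncl. They were chosen by name, and their N6-methyladenosine (m6A) peaks are the peaks that share at least 1 exonic base with them on the same strand. These were 44 of the 18895 peaks found in cells given DMSO and 39 of the 13001 peaks found in cells given doxycycline (Dox), 83 of 31896 in all.

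The peaks come from MeRIP-seq of E14 mouse embryonic stem cells (ESCs), in which fragments of poly(A) RNA that carry m6A are pulled down with an antibody (IP) and sequenced beside untreated fragments (input). Both groups of cells carry a Dox-inducible transgene of Dux, a transcription factor of the 2-cell embryo, and a tdTomato reporter driven by the promoter of the MERVL retrotransposon. They were grown on gelatin with LIF and given the solvent DMSO, or Dox to switch on Dux, for 24 h, and the comparison asks where m6A lies in mRNA with and without Dux. There were 8 libraries in 4 groups of 2 replicates, an IP and an input group for each treatment, but each treatment is represented by 1 peak list, so no value below has a replicate error and no test between treatments was made. The methods describe no sorting of cells before this assay, and they do not say whether the line is 1 clone.

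Of 10 markers of ESCs, all 10 carried a peak in both lists, whereas 3 of 10 markers of 2C-like cells did so with DMSO and 10 of 10 with Dox. Of 5 fibroblast markers only Vim carried a peak, in both lists, and none of 4 endoderm markers did in either. In bulk RNA, fewer cells with a transcript and less of it per cell cannot be told apart. Read depth and input levels were not analysed here, and a deeper library or a more abundant transcript yields more peaks at the same threshold.

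In the nucleolus, RNA polymerase I transcribes the rRNA precursor, which is cleaved, chemically modified and packed with ribosomal proteins into the ribosomal subunits. Small nucleolar ribonucleoproteins (snoRNPs) guide the modification. Those of the box C/D class methylate ribose and those of the box H/ACA class turn uridine into pseudouridine. The m6A measured here is another modification, placed on the mRNAs of these proteins, where it is often found in the sequence GGAC or the broader DRACH (D is A, G or U, R is A or G, and H is A, C or U) and bears on mRNA decay and translation.

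The sequences below are stretches of at most 30 bases from mm10, 5′ to 3′, shown because the coding sequence under the peaks of these genes was rich in the purines A and G and because GGAC was present in some peaks and absent from others. They are from the reference genome and not from the reads. Capitals mark GGAC. The first 4 are the stretches richest in purines of the best-scoring peak of their gene (for Ncl that of the Dox list, for the other 3 that of either list), the next 2 are centred on a GGAC of a best-scoring peak, and the last 2 are the whole peaks of Fbl, the last of them joined across an intron.
Ncl, chr1:86356623-86356652, minus strand: gaggaggaggatgatgaggaagaggatgaa
Nop58, chr1:59711276-59711305, plus strand: agagaaaaagaagaaaaagaaaaagaagaa
Dkc1, chrX:75108232-75108261, plus strand: gaaggaaaagaagaagaagaaggataagaa
Nop56, chr2:130279170-130279199, plus strand: acaaagagcagcacaaagaaaaagaaaaag
Npm1, chr11:33156040-33156069, minus strand: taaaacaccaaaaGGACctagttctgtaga
Polr1b, chr2:129125375-129125404, plus strand: tgtggccagccgaGGACatgcctttcactg
Fbl, chr7:28174595-28174619, plus strand: tggcggtGGACgaggaggctttggc
Fbl, chr7:28174670-28174792, plus strand: aggtggcggtggccgaggtgggggc
All 8 lie in coding sequence. The Ncl stretch held 27 purines in 30 bases. The Nop58 stretch was all purine, and in the reading frame 8 of its 9 whole codons were AAA or AAG, the codons of lysine. AAA and AAG made up 7 of 9 whole codons in the Dkc1 stretch and 6 of 10 in the Nop56 stretch.

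All 10 genes carried a peak with DMSO and 9 with Dox, Fbl being the exception. Without peaks of 25 nt, 9 genes carried a peak in each list. Over all 22028 protein-coding genes, which include genes that ESCs do not express, 27.5% carried a DMSO peak and 22.2% a Dox peak. Over the 10 genes, 12124 exonic bases lay under DMSO peaks and 9424 under Dox peaks, a ratio of 1.29, and 9249 of these bases were the same in both. The bases in common were 76.3% of the DMSO bases and 98.1% of the Dox bases. Peak bases were fewer in the Dox list in 10 of 10 genes, against 86.7% of the 6213 protein-coding genes with a peak in either list, so that the direction was that of most genes. With peaks scoring at or above the DMSO median alone, 6 of the 10 genes had fewer bases in the Dox list. With the 13001 best-scoring peaks of each list, 9 did. The share over all genes was not computed at either setting. Among genes with peaks in both lists, the median ratio of DMSO to Dox bases was 1.28 for the 9 members and 1.42 for all.

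**Figure D1:**
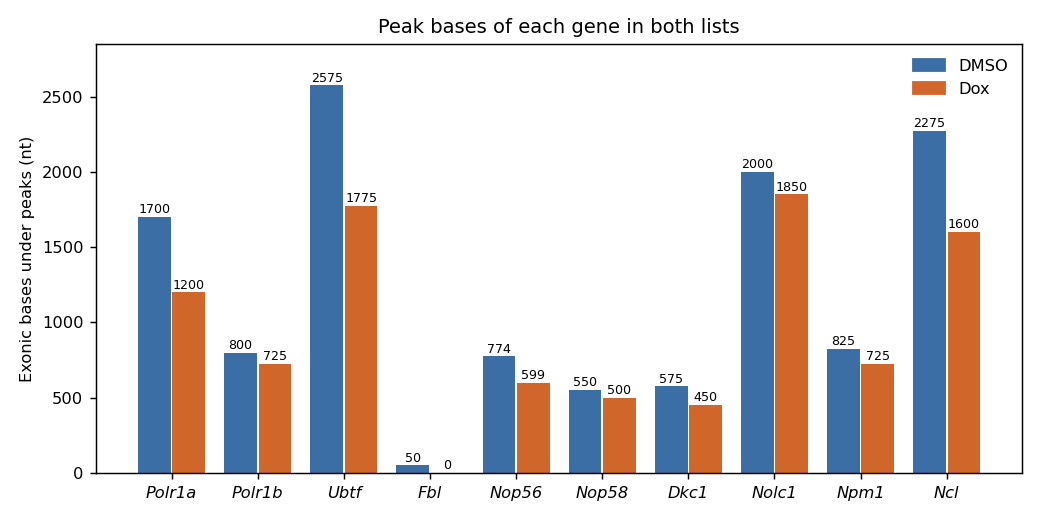
Exonic bases under peaks (vertical axis, nt) of each gene for DMSO (blue) and Dox (orange), 1 value per list, with no replicate error. The blue bar is the taller one in all 10 genes, from 50 against 0 in Fbl to 2575 against 1775 in Ubtf.

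The number of peaks was lower in the Dox list in 5 genes (background 59.1%), equal in 4 and higher in Ubtf alone (background 12.7%). The ratio of DMSO to Dox peaks was 1.13 over the members and 1.45 over the whole lists. Ubtf held 10 of the 44 and 14 of the 39 peaks, and without it the ratio was 1.36 for peaks and 1.25 for bases. At scores at or above the DMSO median the ratios were 1.25 for peaks and 1.20 for bases. With the 13001 best-scoring peaks of each list the ratio of peaks turned to 0.949 (37 DMSO and 39 Dox peaks), while the ratio of bases stayed above 1 at 1.18.

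Of the DMSO peaks, 30 of 44 (68.2%, Wilson 95% interval 53.4% to 80.0%) were overlapped by a Dox peak, against 57.0% of all DMSO peaks. Of the Dox peaks, 35 of 39 (89.7%, 76.4% to 95.9%) were overlapped by a DMSO peak, against 92.7% of all Dox peaks. Both backgrounds lie inside the intervals, which cover counting error only. With both lists cut to peaks scoring at or above the DMSO median, the shares were 43.3% and 58.3%. Partners below the cut were not counted there, and the share over all peaks was not computed at this cut. Where 50% of both peaks had to be shared, the Dox share was 59.0%, and the share over all peaks was not computed under this rule either. Overlapping peaks were mostly shorter in the Dox list: of 26 peaks that met 1 peak of the other list and were met by no other, 18 were longer with DMSO, 0 with Dox and 8 were equal. In these 26 pairs, the score was higher with DMSO in 17 and with Dox in 9. No count over all such pairs of the whole lists is set beside these lengths and scores. Whether they are particular to these genes was therefore not tested. The 18 peaks found in 1 list only (14 DMSO and 4 Dox) were at most 100 nt long.

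**Figure D2:**
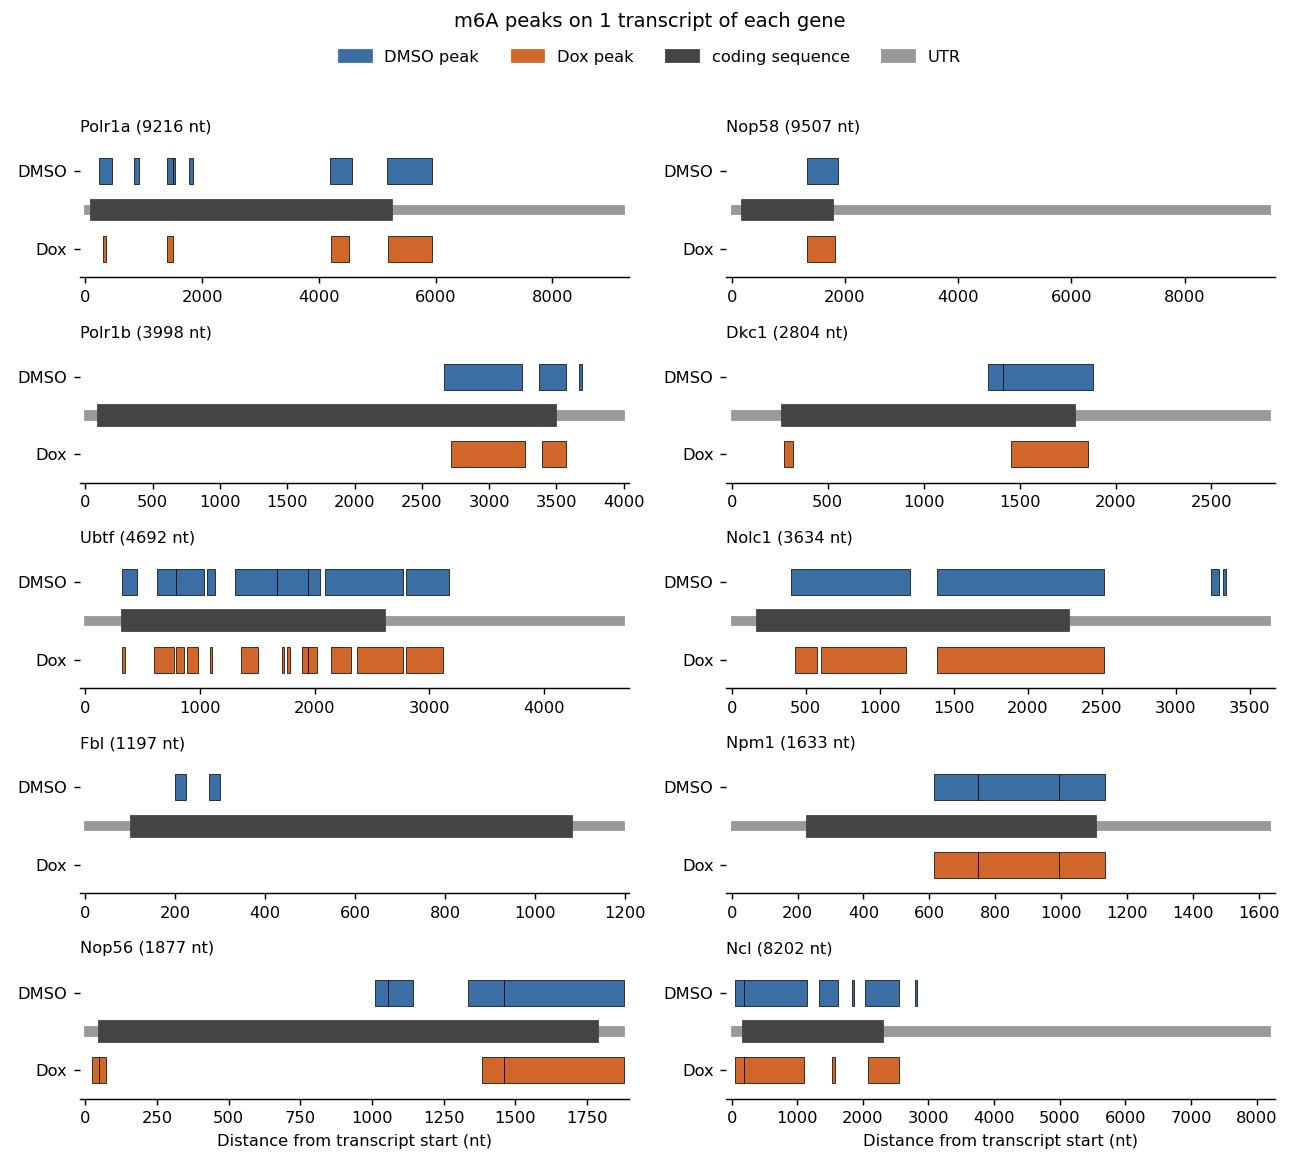
DMSO peaks (blue, above) and Dox peaks (orange, below) along the transcript with the longest coding sequence of each gene, horizontal axis in nt from its start, with coding sequence in dark and UTR in light grey. Peaks are cut to this transcript, and 6 of the 83 peaks that lie on other exons of Npm1, Nop56 and Ubtf are not drawn. Most Dox peaks sit inside a DMSO peak, Ubtf is covered by many separate blocks, and Fbl has no Dox peak.

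Polr1a (chr6:71909053-71984935, plus strand) encodes the catalytic subunit that forms the active centre of RNA polymerase I together with the product of Polr1b. Its DMSO peaks, 7 in all, covered 1700 bases, and its 4 Dox peaks covered 1200. The longest, across the stop codon into the 3′UTR, was 775 nt with DMSO and 750 nt with Dox, and a 100-nt peak in coding sequence had identical exon blocks in both lists. The 3 DMSO peaks with no Dox peak over them (100, 50 and 75 nt) all lay in the first part of the coding sequence. The 100-nt one, with a score of 19.4, was the best-scoring peak of the gene and scored above 96.3% of the DMSO list. The score, a value deposited with each peak and read as −log10 p, was at least 10 everywhere. It is ranked within a list and, apart from the count of pairs above, not compared across lists. The best Dox score was 12.3, above 70.1% of the Dox list, and was that of the peak with identical blocks. With DMSO that peak scored 17.5, above 94.5% of the list.

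Polr1b (chr2:129100995-129126594, plus strand) had its peaks at the 3′ end of the coding sequence. The 3 DMSO peaks held 800 bases and the 2 Dox peaks 725, all in the exon that holds the stop codon. A 575-nt DMSO peak and a 550-nt Dox peak shared 525 bases and held 4 GGAC each, among them the one printed above. They scored 14.4 and 11.5, above 86.7% and 48.1% of their lists. Next to the stop codon, a 200-nt DMSO peak scored 11.2 and the 175-nt Dox peak inside it scored 14.2, which ranked them above 33.4% and 88.0% of their lists. A 25-nt peak in the 3′UTR was found with DMSO only.

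Ubtf (chr11:102304560-102319742, minus strand) encodes an HMG-box protein that binds the promoter and the body of the rRNA genes and recruits RNA polymerase I. Its 10 DMSO peaks covered 2575 bases and its 14 Dox peaks 1775. No peak of either list stood alone: each was overlapped by at least 1 peak of the other. A DMSO peak of 250 nt met 2 Dox peaks of 75 and 100 nt, one of 300 nt met 3 of 25, 25 and 75 nt, and one of 675 nt met 2 of 175 and 400 nt. Hence more peaks and fewer bases went together in this gene. Of its coding sequence, 81.2% lay under DMSO peaks and 49.7% under Dox peaks. The best-scoring DMSO peak (17.0) lay in the 3′UTR, was 375 nt long and held 7 GGAC, and the Dox peak inside it was 325 nt long with 6.

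Fbl (chr7:28169710-28179269, plus strand) encodes fibrillarin, the methyltransferase of box C/D snoRNPs. It had 2 DMSO peaks of 25 nt, with scores of 12.0 and 10.8, and no Dox peak. Over protein-coding genes with a peak in either list, 21.5% had DMSO peaks only. The peaks scored above 60.1% and 20.8% of the DMSO list and lay 201 to 225 and 276 to 300 nt from the transcript start. Their sequences, printed above, are rich in G and hold GGAC once in the first and not in the other. The latter matched another place in the genome at 98% identity or more over 90% or more of its length, so that its reads may not be unique to Fbl. The length of both, 25 nt, was the shortest in the lists. Peaks of this length were 6 of the 44 DMSO peaks and 7 of the 39 Dox peaks of the 10 genes, against 16.6% and 16.5% of all peaks.

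Nop56 (chr2:130274430-130279313, plus strand) encodes a core scaffold protein of box C/D snoRNPs, and its introns hold 5 annotated snoRNAs. It had 5 peaks in each list, over 774 bases with DMSO and 599 with Dox. Its 424-nt peak at the stop codon had identical blocks in both lists and scored 99.1 with DMSO and 85.9 with Dox, which was above 99.9% of either list. A peak just before it in the coding sequence was 150 nt long with a score of 14.8 with DMSO and 100 nt with a score of 41.2 with Dox. These ranked above 88.4% and 99.5% of their lists. Of the other peaks, 3 DMSO peaks of 50, 100 and 50 nt had no Dox peak over them, and 3 Dox peaks of 25 nt had no DMSO peak over them. The 424-nt peak matched another locus by the 98% rule, and so did the 100-nt DMSO peak. At 95% identity or more over 50% or more of the length, 4 of the 5 DMSO peaks and all 5 Dox peaks did. Reads of near-identical copies may thus have been counted here.

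Nop58 (chr1:59684971-59719044, plus strand), the partner of Nop56 in the same particles, holds 4 annotated snoRNAs. It had 1 peak in each list, joined from 5 exon blocks over the end of the coding sequence, of 550 nt with DMSO and 500 nt with Dox. The shorter lay wholly within the longer. The DMSO peak scored 11.4, above 43.2% of its list, and the Dox peak 15.4, above 92.5% of its list. Its 3′UTR of 7723 nt carried 90 bases of DMSO peak and 40 of Dox peak, all next to the stop codon.

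Dkc1 (chrX:75095854-75109777, plus strand) encodes dyskerin, the pseudouridine synthase of box H/ACA snoRNPs, and holds 1 annotated snoRNA. It had 2 peaks in each list, over 575 bases with DMSO and 450 with Dox. A 475-nt DMSO peak at the end of the coding sequence contained the 400-nt Dox peak, with scores of 12.0 and 11.6. The other peaks did not meet: the DMSO one (100 nt) lay directly before the long peak and the Dox one (50 nt) near the start codon.

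Nolc1 (chr19:46075863-46085530, plus strand) encodes a phosphoprotein that binds snoRNPs of both classes and moves between the nucleolus and Cajal bodies. The 4 DMSO peaks covered 2000 bases and the 3 Dox peaks 1850. A 1125-nt peak, joined from 4 blocks and reaching past the stop codon, was identical in both lists and scored 13.3 and 13.1. An 800-nt DMSO peak of 7 blocks met Dox peaks of 150 and 575 nt. The 575-nt Dox peak scored 21.8, above 98.0% of its list, where the 800-nt DMSO peak scored 13.3, above 78.9%. Of the coding sequence, 79.9% lay under DMSO peaks and 76.4% under Dox peaks. The 2 DMSO peaks with no Dox peak over them (50 and 25 nt) were far out in the 3′UTR.

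Npm1 (chr11:33152287-33163206, minus strand) encodes nucleophosmin, an abundant chaperone of histones and ribosomal proteins in the outer layer of the nucleolus. It had 4 peaks in each list, and each overlapped its counterpart. Of these, 3 had identical blocks. They covered the coding sequence from its middle to its end without a gap, and the same 488 of 876 coding bases (55.7%) lay under peaks in both lists. The 275-nt peak scored infinite with DMSO (a p-value of 0 as written) and 187 with Dox, which was the top rank of the DMSO list, tied among its 3 infinite scores, and rank 4 of the Dox list. The 150-nt peak before it scored 136 and 74.9. The 150-nt peak at the end of the coding sequence scored 20.6 with DMSO and 13.7 with Dox, above 97.0% and 85.2% of the lists. The remaining pair, of 250 nt with DMSO and 150 nt with Dox, lay on exons of other transcripts of the gene. All 4 Npm1 peaks of each list had another locus at 95% identity or more over 50% or more of the length, so reads of near-identical copies may have been counted here.

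Ncl (chr1:86344719-86359400, minus strand) encodes nucleolin, with an acidic amino-terminal part, RNA-binding domains and a tail rich in glycine and arginine, and holds 3 annotated snoRNAs. Peaks covered 2275 bases with DMSO (6 peaks) and 1600 with Dox (4 peaks). A peak of 6 blocks from the start of the coding sequence was 1150 nt long with DMSO and 925 nt long with Dox, the shorter wholly inside the longer. It scored 13.7 with DMSO, above 82.4% of the list, and 45.9 with Dox, above 99.6%. The DMSO peak held 3 GGAC and the Dox peak none, but DRACH was found 18 and 12 times. The peak over the stop codon was 525 nt with a score of 17.3 with DMSO and 475 nt with a score of 11.5 with Dox. These ranked above 94.1% and 49.9% of their lists. A 300-nt DMSO peak in the middle of the coding sequence met a Dox peak of 50 nt. At the 5′ end of the gene, a 250-nt DMSO peak with a score of 11.6 contained the 150-nt Dox peak, which scored 13.7, and these ranked above 49.9% and 85.4% of their lists. The 2 DMSO peaks with no Dox peak over them were 25 nt long, and the one in the 3′UTR matched 124 other loci by the 98% rule.

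**Figure D3:**
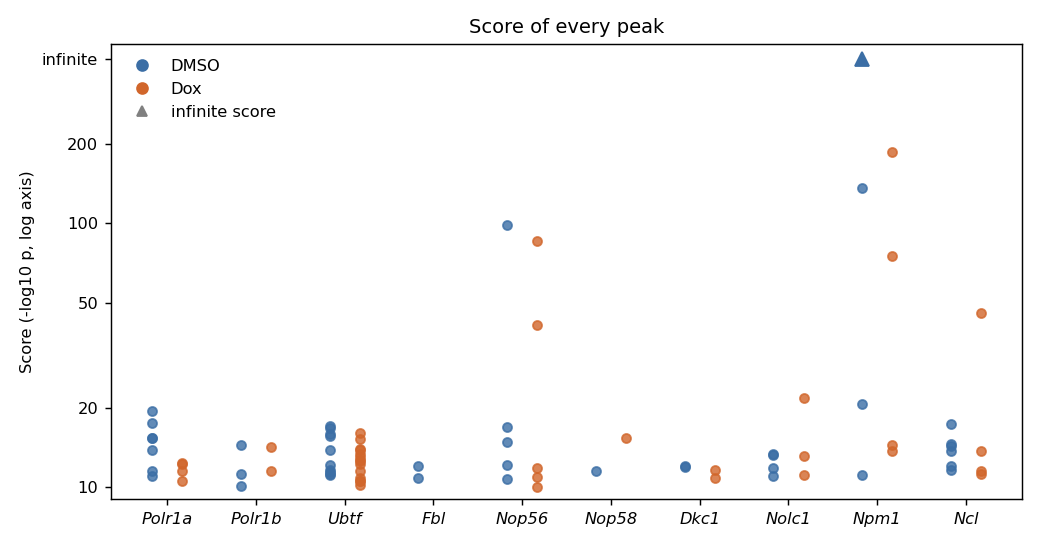
Score (−log10 p, logarithmic axis) of every peak of the 10 genes, DMSO in blue and Dox in orange, each point 1 peak. The triangle marks the infinite score of an Npm1 peak and has no height on the axis. Peaks of Npm1, Nop56 and, in the Dox list, Ncl stand above 40, and those of the other 7 genes lie between 10 and 22.

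By score, 68.2% of the DMSO peaks and 64.1% of the Dox peaks of the 10 genes were above the median of their list (Wilson 95% intervals 53.4% to 80.0% and 48.4% to 77.3%). The score follows the number of reads as well as the enrichment, and the level of these transcripts in the input was not analysed, so the part of the level in the rank was not tested.

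The peaks lay mostly in coding sequence and across splice junctions. The middle base was in coding sequence for 34 of 41 DMSO peaks (82.9%, 68.7% to 91.5%) and 31 of 36 Dox peaks (86.1%, 71.3% to 93.9%) that could be placed on the chosen transcript, against 71.9% and 71.1% of all peaks. Peaks of more than 1 exon block were 63.6% (48.9% to 76.2%) with DMSO and 59.0% (43.4% to 72.9%) with Dox, against 26.4% and 21.8%. Both of these intervals for blocks lie above their background. For coding sequence, the DMSO interval holds its background and the Dox interval starts just above its own. The intervals count every peak as independent, although the peaks come from 10 genes, with 10 DMSO and 14 Dox peaks in Ubtf. They cover counting error only and are no test. Exon length was not matched between the members and all genes. The middle was within 200 nt of the stop codon in 8 DMSO peaks (19.5%, 10.2% to 34.0%) and 6 Dox peaks (16.7%, 7.87% to 31.9%), against 22.9% and 25.1%, which are inside the intervals.

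Many peaks reached outside the chosen transcript. Of the 83 peaks, 36 had bases on other annotated exons and 6 lay on such exons alone. In Nop56, a 50-nt DMSO peak and a 25-nt Dox peak of these 6 lay wholly on transcripts annotated with a retained intron. The 25-nt Dox peak also lay wholly on another transcript, annotated as protein-coding. No peak touched any of the 13 snoRNAs that lie inside Ncl, Nop56, Nop58 and Dkc1, and none lay over the exons of another gene.

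GGAC was present in 24 of 44 DMSO peaks (54.5%, 40.1% to 68.3%) and 22 of 39 Dox peaks (56.4%, 41.0% to 70.7%), against 54.0% and 55.9% of all peaks. DRACH was present in 84.1% and 79.5%, against 84.9% and 85.4%. GTCC, which is GGAC on the other strand and was searched on the same strand as a comparison, was present in 43.2% and 33.3%, against 36.6% and 37.0%. Each of these backgrounds lies within the members' interval. GGAC was present in 12 of 13 DMSO peaks longer than 300 nt against 92.3% of all such DMSO peaks, and in 1 of 6 of 25 nt, against 14.5%. At 101 to 300 nt it was in 8 of 14 DMSO and 6 of 12 Dox peaks, against 66.9% and 69.8%. At 26 to 100 nt it was in 3 of 11 and 4 of 9, against 36.0% and 37.2%. These backgrounds too lie within the members' intervals, which are wide at such counts.

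The coding sequence of these genes held more purines under the peaks than outside them. This was so in 9 of 9 genes in each list with at least 100 coding bases on either side, against 77.3% of 3998 genes for DMSO and 72.7% of 3000 for Dox. The median difference was 10.6 percentage points in both lists, where all genes had 3.97 and 3.36. In Nop58, the same 457 coding bases lay under the peak in both lists, and 73.1% of them were purines against 55.1% outside, a difference of 18.0 points that was larger than that of 97.9% of all genes in the DMSO list. In that list the difference of Ncl, Dkc1, Nop56 and Nolc1 was above that of 90.5%, 89.1%, 85.6% and 85.5% of all genes. That of Npm1, Polr1a and Ubtf was nearer the middle, above 58.1%, 53.2% and 50.7%. The order differed in the Dox list, where Polr1a was above 90.6% of all genes and Nolc1 above 73.7%. Nop58, Dkc1, Nop56 and Ncl were above 97.5%, 90.2%, 86.1% and 85.6% there, and Npm1 and Ubtf above 60.4% and 52.8%. In Ncl the purine share was 67.7% under DMSO peaks and 55.3% outside, and 69.2% and 58.5% for Dox peaks. Polr1b differed least, with 51.7% and 49.4% for DMSO peaks and 50.3% and 49.8% for Dox peaks. Fbl was left out of the count for its 50 bases under peaks, of which 68.0% were purines.

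**Figure D4:**
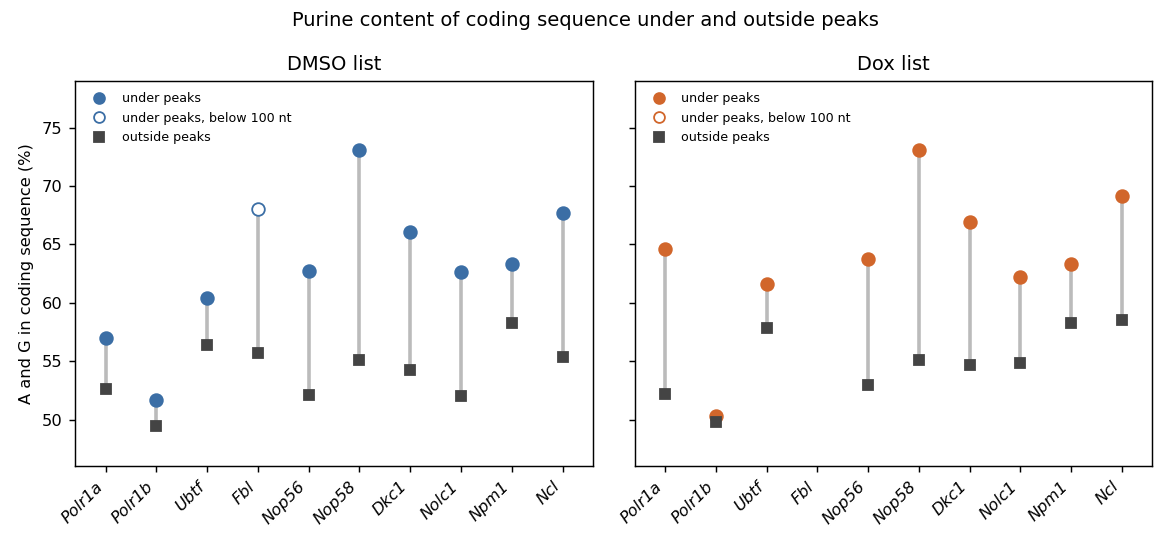
Share of A and G (vertical axis, %) in the coding sequence under peaks (circles) and outside them (squares) for each gene, DMSO list on the left and Dox list on the right. The circle is above the square in every gene shown, by 18.0 points in Nop58 and by 2.28 (DMSO) and 0.506 (Dox) in Polr1b. The open circle of Fbl rests on 50 bases.

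The lysine codons AAA and AAG made up a larger share of the codons under the peaks than outside in 8 of 9 genes with DMSO and in 7 of 9 with Dox, against 63.1% of 3998 and 57.4% of 3000 genes. The share was lower under the peaks in Polr1b in both lists (4.70% and 5.34% outside with DMSO) and in Polr1a with Dox (5.85% and 7.06%). It was nearly equal in Ubtf (13.6% and 13.5%) and, with DMSO, in Polr1a (7.14% and 6.93%). The shares were 24.3% under the Nop58 peak and 9.14% outside, 21.2% and 5.97% in Nop56, and 20.1% and 7.24% in Dkc1 (DMSO list). The peak bounds of the lists overlap, so these values are not independent of each other. The part of base composition in where peaks were called was not tested.

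A wider list of ribosome biogenesis genes was read in the same way, with 101 genes matched by name and no member among them. A DMSO peak was carried by 87 (86.1%) and a Dox peak by 83 (82.2%), against 27.5% and 22.2% of all protein-coding genes. Of the 89 with a peak in either list, 79 (88.8%) had fewer peak bases in the Dox list, 8 more and 2 as many, close to the 86.7% of all such genes. Peaks numbered 305 and 261, and peak bases 74298 and 52350, a ratio of 1.42.

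The drop in bases from DMSO to Dox was largest in Mki67, which coats mitotic chromosomes (7750 to 4375 bases, while its peaks went from 11 to 25). Next came Mdn1, a giant AAA-type ATPase of large subunit assembly (3450 to 2100), and Ttf1, the RNA polymerase I termination factor (1175 to 550). Peak bases were higher with Dox in Rrs1 (1200 and 1325), Imp3 (275 and 350) and Nop53 (775 and 850). The best-scoring peaks were those of Nop53 (30.2), Tcof1 (29.3) and Senp3 (27.5) with DMSO, and of Fcf1 (23.8), Mybbp1a (20.2) and Wdr43 (19.9) with Dox. None of these reached the best peaks of Npm1 or Nop56, which had near-identical loci elsewhere. Peaks of the wider list were not searched for such loci.

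The partners of the members in their complexes, picked from that list by role after their values were seen, are given by their values alone. Of 6 other subunits of RNA polymerase I, 3 carried a DMSO peak and 4 a Dox peak. Polr1d had 1150 and 675 bases, Cd3eap 1050 and 825 and Twistnb 350 and 250. Polr1e had a Dox peak of 50 bases only, and Polr1c and Znrd1 had none. Of 5 initiation factors, Rrn3 had 600 and 425 bases, Taf1c 750 and 650 and Taf1d 550 and 375, whereas Taf1a and Taf1b had none. Of the other core proteins of the snoRNPs, Snu13 of the box C/D class had 150 and 75 bases. In the box H/ACA class, Nhp2 had 375 and 225 bases, Gar1 25 and 50, and Nop10 none.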

How the data were processed

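MeRIP-seq peaks of E14 ESCs were analysed as deposited, 1 list for each treatment. Per the methods and the submitters' processing notes, the authors used fastp 0.19.4 to filter reads, HISAT2 2.2.1 to align them to mm10, and exomePeak2 to call peaks of IP against input. Its version and settings, and how the 2 replicates were joined, are not given in the sources used here. The score is the value in the fifth field of the deposited lists and was taken to be a −log10 p-value computed by the authors, because all values were at least 10, the highest finite one was 296 and 4 were infinite. Whether it was adjusted is not stated. Higher depth lowers p-values and adds peaks.

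Exon blocks were set against GENCODE M21, same strand, at least 1 shared base. Nearly all peak lengths (99.8%) were multiples of 25 nt. Positions, coding bases and codons used the transcript with the longest coding sequence per gene, and regions are those of the peak's middle base. Motifs were searched on the strand of the peak in the GRCm38 reference sequence (C57BL/6J). A codon was counted when it lay wholly on 1 side of the peak bounds. Other loci were searched with blastn 2.17.0. Shares have Wilson 95% intervals, which count the peaks of a gene as independent. Python 3.11.15, scipy 1.17.1, pyfaidx 0.9.0.4, samtools 1.23.1 and matplotlib 3.10.9 were used, and the steps were tested on simulated peaks.

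The members, gene lists and alternatives were chosen with earlier results of these data known. The genes named were all members; of the wider list, up to 3 genes per direction with the largest difference in peak bases and up to 3 with the best-scoring peak per list; and the 3 other genes nearest to the members' median peak bases. Single peaks named were each member's best-scoring peak per list and, by gene, the peaks found in 1 list only. Other overlapping peaks were named outside this rule, with their values known. The wider list had 102 names, of which Rio1 was not matched. Alternatives covered score, list size, strand, gene assignment, near-identical loci, introns, overlap, motif, stop codon window and transcript.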

Additional observations from a re-analysis of the deposited data

How the results depend on the processing

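No paired analysis was possible because the peaks were given as a single list for DMSO and for Dox with no value per replicate, and for the same reason leaving out each replicate was not run. Over 13 results, 66 values were recomputed. Of these, 46 stayed within the interval of the share or ratio of peaks, or within 1.5 times the count or ratio of bases, 19 moved further and 1 turned its direction, the ratio of DMSO to Dox peaks at equal list sizes (0.949, 37 and 39 peaks). The interval of that ratio, 0.736 to 1.73, holds 1. Some alternatives moved none of the results they were run on: strand (the members with a peak), assignment to 1 gene and the 98% rule (the members with a peak and both ratios), spans with introns (the ratio of bases) and the longest transcript (the stop codon shares).

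With both lists cut at the DMSO median score, so that partners below it were not counted, the overlapped shares were 43.3% (DMSO) and 58.3% (Dox). At this cut 6 genes had fewer bases with Dox, and the share over all genes was not computed. By number of peaks in place of bases, 5 genes had fewer. With 50% of the peak shared, the DMSO share was 52.3%, and with 50% of both peaks the shares were 52.3% and 59.0%. For these overlapped shares, no share over all peaks was computed at the same settings. The motif shares (DMSO, Dox) were 29.5% and 28.2% for GGACT, 29.5% and 33.3% for AGGAC, and 84.1% and 79.5% for DRACH, which are other motifs, and GTCC was in 33.3% of Dox peaks. A window of 100 nt at the stop codon held 7.32% of DMSO peaks, and one of 400 nt held 36.1% of Dox peaks, as a narrower or wider window must move the share. Of alternatives chosen after seeing the data, leaving out peaks of 25 nt gave a Dox overlapped share of 96.9%. It left 9 genes with a peak in each list. Leaving out peaks with another locus at 95% identity over 50% of the length gave overlapped shares of 82.8% and 100% (DMSO, Dox). That left 8 and 7 genes with a peak. Leaving out Ubtf moved none of its 4 values that far.

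With 1 list per treatment, a difference between DMSO and Dox cannot be told apart from a difference in depth or between replicates. Scores and numbers of peaks also follow transcript level, which was not analysed here.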

Other observations

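Outside both gene lists, the protein-coding genes whose peak bases were nearest to the medians of the 10 genes (812.5 bases with DMSO and 725 with Dox) were Poldip3 (825 and 725 bases, 4 peaks in each list), Cdk9 (800 and 725, 1 peak in each) and Klhl11 (800 and 725, 3 DMSO and 2 Dox peaks). The distance was taken over log2(peak bases + 25) in the 2 lists. Over all protein-coding genes with a peak in the list, the medians were 350 and 300 bases.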
